A study of Homo sapiens with 4 samples.

Results

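The heterogeneous nuclear ribonucleoproteins (hnRNPs) and the SR proteins, both families of abundant nuclear RNA-binding proteins that steer pre-mRNA splicing, were followed in HaCaT keratinocytes with and without TCN1 overexpression. The members were all rows whose symbol begins with HNRNP and a further letter, or is SRSF and a number, without pseudogene symbols ending in P and a number. This gave 35 of 29209 listed genes, 23 HNRNP rows and 12 SRSF rows. Of the HNRNP rows, 21 are protein-coding and 2, HNRNPD-DT and HNRNPK-AS1, are noncoding neighbours that carry the name of a gene they overlap.

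HaCaT is a spontaneously immortalised human keratinocyte line. The study compared a line made with a lentivirus to overexpress TCN1, a secreted vitamin B12-binding protein (TCN1_OE, 2 libraries), with a negative control line (NC, 2 libraries), by RNA-seq of polyA RNA from cells grown in DMEM with serum. The labels do not say what the control line carries, whether a line is a clone or a pool, which promoter drives TCN1, or whether replicates were grown apart. All p-values therefore measure library-to-library spread alone, and this spread may be technical.

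SR proteins carry RNA-recognition motifs and a domain rich in arginine and serine, bind exonic enhancers, and help to bring the U1 and U2 particles to weak splice sites. Many hnRNPs bind silencer elements and oppose them, so that the balance of both families sets how often an exon is kept. SR and hnRNP genes are also known to limit their own output, by splicing part of their transcripts into forms that are degraded by nonsense-mediated decay. The deposited values are sums over all transcripts of a gene and do not separate such forms.

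The libraries held 11593377 to 19973550 counts. TCN1, the check of the labels, had counts of 50 and 17 in NC and 1700 and 1253 in TCN1_OE. All 8 keratinocyte markers were expressed, with summed levels of 7166 to 7808 FPKM in NC and 7712 to 8530 FPKM in TCN1_OE. Of 22 markers of fibroblasts, melanocytes, endothelial and immune cells, 15 were listed, 3 (COL1A1, VWF and CD14) averaged 1 FPKM or more, 0 were at 0 in every library, and the sums per cell type lay between 0.877 and 3.11 FPKM. Mitochondrially encoded genes took 5.33% and 5.13% of the counts in NC and 6.04% and 5.65% in TCN1_OE. That share moved with the groups, and its part in the results below was not tested.

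The 35 rows together took 0.986% and 0.915% of all counts in the NC libraries and 0.900% and 0.844% in the TCN1_OE libraries. These groups did not overlap, but the gap was smaller than the difference between the libraries of either group. The HNRNP rows took 0.781% and 0.725% in NC and 0.707% and 0.670% in TCN1_OE, again without overlap. For the SRSF rows the groups overlapped, at 0.205% and 0.190% in NC and 0.193% and 0.174% in TCN1_OE. In RNA from whole cultures, fewer cells of a type and less RNA per cell cannot be told apart. Of the 35 members, 31 passed the filter on low counts and could be tested; the exceptions were HNRNPL, HNRNPR, SRSF12 and HNRNPD-DT. Only 1 member fell in TCN1_OE and none rose at an edgeR adjusted p under 0.05, against 0.212% lower, 0.285% higher and 0.496% in either direction among the 15113 genes tested. The member that fell was HNRNPAB. At an unadjusted p under 0.05, 7 members were lower and 0 higher, where 6.81% and 6.00% of all genes tested were lower and higher. DESeq2 likewise called 1 member lower and 0 higher, against 0.928% and 0.903% of the genes for which it gave an adjusted p. With limma 0 members were called in either direction, against 0.00872% higher and 0.00% lower of all genes in that fit.

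Most of the family lay slightly below the control. Of the 31 tested members 26 had a negative log2 fold change, 18 of 20 HNRNP rows and 8 of 11 SRSF rows, where 49.7% of all genes tested did. The median was -0.12 for the HNRNP rows and -0.07 for the SRSF rows, beside 0.0016 over all genes. Without NC replicate 1 the HNRNP median was -0.071, and without TCN1_OE replicate 1 the SRSF median was -0.14. With upper quartile factors the SRSF median was -0.052. In 13 members both TCN1_OE libraries lay below both NC libraries, and in 0 did both lie above, while 21.8% and 21.2% of all genes tested did so. Highly expressed genes as a whole leaned the same way. Among the 6025 genes tested at or above the lowest abundance of the 30 tested protein-coding members, 58.2% were negative, 28.8% had both TCN1_OE libraries below both NC libraries, and the median was -0.03.

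**Figure D1:**
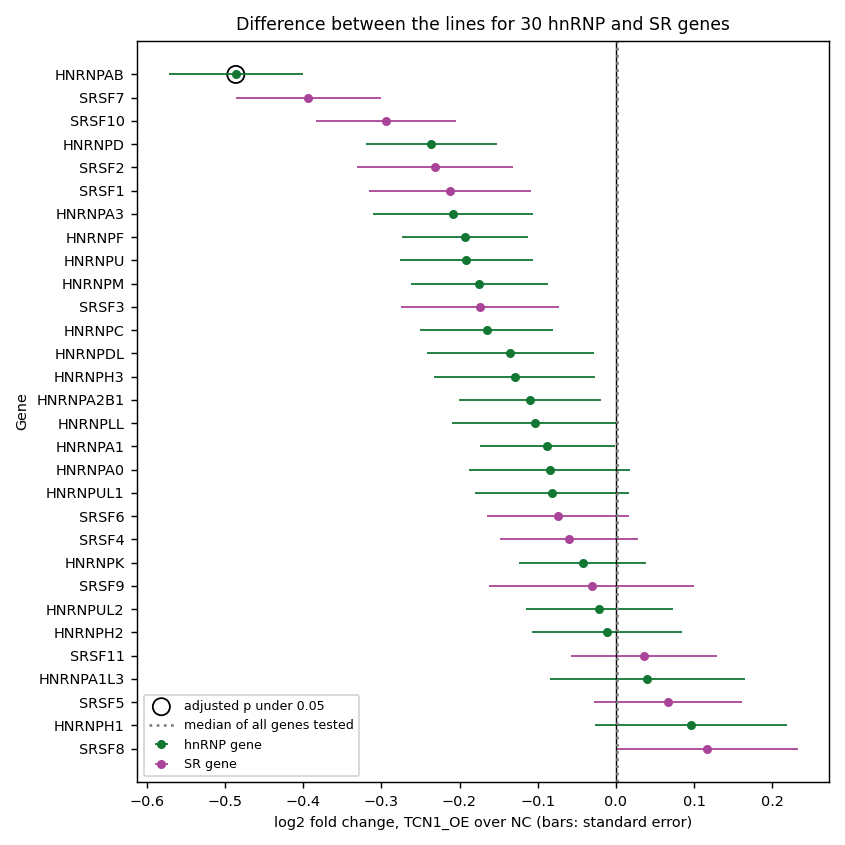
Log2 fold change of TCN1_OE over NC (x axis, bars are the standard error) for the 30 protein-coding members tested, ordered by value, with hnRNP genes in green and SR genes in purple; the dotted line is the median of all genes tested. HNRNPAB, ringed, is the 1 gene with an adjusted p under 0.05, and 25 of the 30 points lie left of 0.

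HNRNPAB (ENSG00000197451, chromosome 5, 178204507 to 178211163 of GRCh38, plus strand) encodes an hnRNP of the A/B type that binds single-stranded nucleic acids. Its level was 100.4 and 100.8 FPKM in NC and 70.7 and 73.3 FPKM in TCN1_OE, from counts of 4246 and 2476 against 2483 and 2292. Both TCN1_OE libraries lay well below both NC libraries, and the 2 libraries within each group were close. The means were 100.6 ± 0.33 and 72.0 ± 1.88 FPKM (SD, n = 2), and HNRNPAB fell by 28.6%, or -0.49 ± 0.09 (SE) as a log2 fold change, at an edgeR adjusted p of 0.0475. The size was stable, from -0.52 to -0.45 over all alternatives, but the call was not: the adjusted p was 0.0566 without TCN1_OE replicate 1, 0.0563 in genes of at least 1 FPKM and 0.175 to 0.177 with limma, within a range of 0.000476 to 0.177 over the alternatives other than a replicate term. Of its exonic bases, 9.14% lie under PHYKPL, which stood at 0.15 ± 0.13, on the other side of 0.

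Because HNRNPAB and SRSF7 had the smallest p of their families, the 250 bases before their RefSeq start sites (GRCh38.p14) are shown 5′ to 3′ on the strand of the gene. Capitals mark matches, on either strand, to 6 promoter motifs. These were the GC box GGGCGG, the CCAAT box spelled by its name, the TATA box TATAAA, the E-box of MYC and related factors CACGTG, the motif of ETS factors CCGGAAG and the motif of NRF1 GCGCATGC. No 2 matches overlap in either stretch. The window of HNRNPAB is chr5:178204283-178204532 on the plus strand, and that of SRSF7 is chr2:38751495-38751744 on the minus strand.
HNRNPAB: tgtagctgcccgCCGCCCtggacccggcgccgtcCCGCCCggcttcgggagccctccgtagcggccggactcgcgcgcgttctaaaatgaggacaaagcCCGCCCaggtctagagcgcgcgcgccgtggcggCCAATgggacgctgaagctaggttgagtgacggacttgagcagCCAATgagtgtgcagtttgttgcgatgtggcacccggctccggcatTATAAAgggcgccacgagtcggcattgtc
SRSF7: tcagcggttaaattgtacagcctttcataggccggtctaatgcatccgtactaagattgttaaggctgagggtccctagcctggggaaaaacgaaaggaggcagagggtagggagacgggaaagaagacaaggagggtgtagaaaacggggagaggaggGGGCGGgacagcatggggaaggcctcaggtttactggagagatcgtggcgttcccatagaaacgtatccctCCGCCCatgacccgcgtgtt
The HNRNPAB window holds 3 GC boxes, 2 CCAAT boxes and a TATAAA that begins 29 bases before the start. The SRSF7 window is poorer in G and C, 54.8% against 66%, and holds 2 GC boxes and no match to the other 5 motifs.

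The remaining proteins of the A/B group and HNRNPD lay closer to the control. HNRNPD, also known as AUF1, binds AU-rich elements and is best known for a role in mRNA decay. It stood at 39.8 and 37.3 FPKM in NC and 32.7 and 33.0 FPKM in TCN1_OE. The groups did not overlap, at -0.24 ± 0.08 on the log2 scale (edgeR adjusted p 0.269). HNRNPA1, which silences exons and was the member with the highest FPKM, stood at 177.5 and 158.2 FPKM in NC and 163.3 and 153.6 FPKM in TCN1_OE. Its groups overlapped, with a log2 fold change of -0.09 ± 0.09. HNRNPA2B1, a close relative of HNRNPA1, held the most counts of any member, 15841 to 31101 per library, and its groups overlapped too at -0.11 ± 0.09.

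HNRNPA3 stood at 28.2 and 24.6 FPKM in NC and 24.5 and 21.4 FPKM in TCN1_OE, a log2 fold change of -0.21 ± 0.10. The groups did not overlap, but the lower NC library and the higher TCN1_OE library nearly met. HNRNPDL, a paralog of HNRNPD, and HNRNPA0, whose gene has 1 transcript in GENCODE release 29, had overlapping groups at -0.13 ± 0.11 and -0.08 ± 0.10. HNRNPA1L3, a row on chromosome 16 that GENCODE release 29 lists under the name of an HNRNPA1 pseudogene, stood at 0.04 ± 0.13. Reads from near-identical copies may be divided between such rows: 29 further HNRNPA1 pseudogene rows, outside the members, held between 2.56% and 3.17% as many counts as HNRNPA1 in each library.

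Proteins of the F/H group bind runs of G. HNRNPF stood at 164.3 and 162.2 FPKM in NC and 147.1 and 139.4 FPKM in TCN1_OE. Both TCN1_OE libraries lay below NC, at -0.19 ± 0.08 (edgeR adjusted p 0.351). Its relatives HNRNPH2 and HNRNPH3 had overlapping groups, at -0.01 ± 0.10 and -0.13 ± 0.10. HNRNPH1 was listed at only 3.83 to 4.60 FPKM, from 421 to 778 counts per library, far under its paralogs. Its log2 fold change was 0.10 ± 0.12. Whether this row holds all reads of the gene was not tested, so its level is uncertain. Whether the paralogs differ from each other in their change was not tested.

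The scaffold protein HNRNPU, which binds chromatin-associated RNA, stood at 34.6 and 31.8 FPKM in NC and 30.3 and 28.0 FPKM in TCN1_OE. The groups did not overlap, with a difference of -0.19 ± 0.08 on the log2 scale (edgeR adjusted p 0.385). Its relatives HNRNPUL1 and HNRNPUL2 overlapped between the groups, at -0.08 ± 0.10 and -0.02 ± 0.09, and 44.1% of the exonic bases of HNRNPUL2 lie under a readthrough gene. HNRNPC, which binds uridine tracts, and HNRNPM, a regulator of epithelial and mesenchymal splice forms, stood at -0.17 ± 0.09 and -0.17 ± 0.09, and in both the groups did not overlap. HNRNPK, which binds C-rich RNA through KH domains, was among the steadiest, with 139.4 and 131.3 FPKM in NC, 136.0 and 127.6 FPKM in TCN1_OE and a log2 fold change of -0.04 ± 0.08. HNRNPLL, a paralog of HNRNPL, stood at -0.10 ± 0.11 with groups that did not overlap. HNRNPK-AS1, with 9 to 15 counts per library and 79.2% of its exonic bases opposite HNRNPK, stood at -0.69 ± 0.58; the library kit does not mark strand, so its reads cannot be told from those of HNRNPK.

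No SR gene passed the test with edgeR, DESeq2 or limma, while 3 of 11 were lower and 0 higher at an unadjusted p under 0.05 with edgeR. The shares over all genes tested were 6.81% and 6.00%, and 11.0% were lower among the 6025 genes of at least the members' lowest abundance. SRSF7, an SR protein with a zinc knuckle, came closest, at 35.2 and 32.6 FPKM in NC and 26.5 and 25.2 FPKM in TCN1_OE. Both TCN1_OE libraries lay below both NC libraries. The difference was -0.39 ± 0.09 on the log2 scale (edgeR adjusted p 0.107, or 0.0142 without a filter on low counts), within a range of 0.0142 to 0.348 over the alternatives other than a replicate term. Its closest paralog SRSF3, the smallest SR protein, stood at 60.4 and 52.1 FPKM in NC and 53.6 and 46.4 FPKM in TCN1_OE. Those groups overlapped, and the log2 fold change was -0.17 ± 0.10.

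SRSF10, which represses splicing when dephosphorylated, stood at 17.7 and 16.3 FPKM in NC and 14.5 and 13.3 FPKM in TCN1_OE. The groups did not overlap, at -0.29 ± 0.09 on the log2 scale (edgeR adjusted p 0.200). SRSF2, also called SC35, had the highest FPKM of the SR genes, with 62.4 and 59.2 FPKM in NC and 56.4 and 47.5 FPKM in TCN1_OE. It differed by -0.23 ± 0.10 on the log2 scale (edgeR adjusted p 0.367), its groups did not overlap, and the TCN1_OE libraries differed more from each other than did the NC libraries. SRSF1, the founding member of the family, stood at 20.0 and 18.2 FPKM in NC and 17.7 and 15.4 FPKM in TCN1_OE, a log2 fold change of -0.21 ± 0.10. SRSF1 and SRSF2 are less certain than most members, since 60.7% and 36.7% of their exonic bases lie under other annotated genes.

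The remaining SR genes lay nearer to the control. SRSF4, SRSF5 and SRSF6, which share a pair of RNA-recognition motifs and a long arginine-serine domain, stood at -0.06 ± 0.09, 0.07 ± 0.09 and -0.07 ± 0.09, and each had overlapping groups. SRSF8 and SRSF11 were on the positive side, at 0.12 ± 0.12 and 0.04 ± 0.09, also with overlapping groups. SRSF9, the closest relative of SRSF1, stood at 17.8 and 19.5 FPKM in NC and 16.2 and 20.3 FPKM in TCN1_OE. Its TCN1_OE libraries enclosed both NC libraries, its log2 fold change was -0.03 ± 0.13, and 46.2% of its exonic bases lie under GATC. SRSF12 was listed at 0 to 2 counts per library and was not tested.

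**Figure D2:**
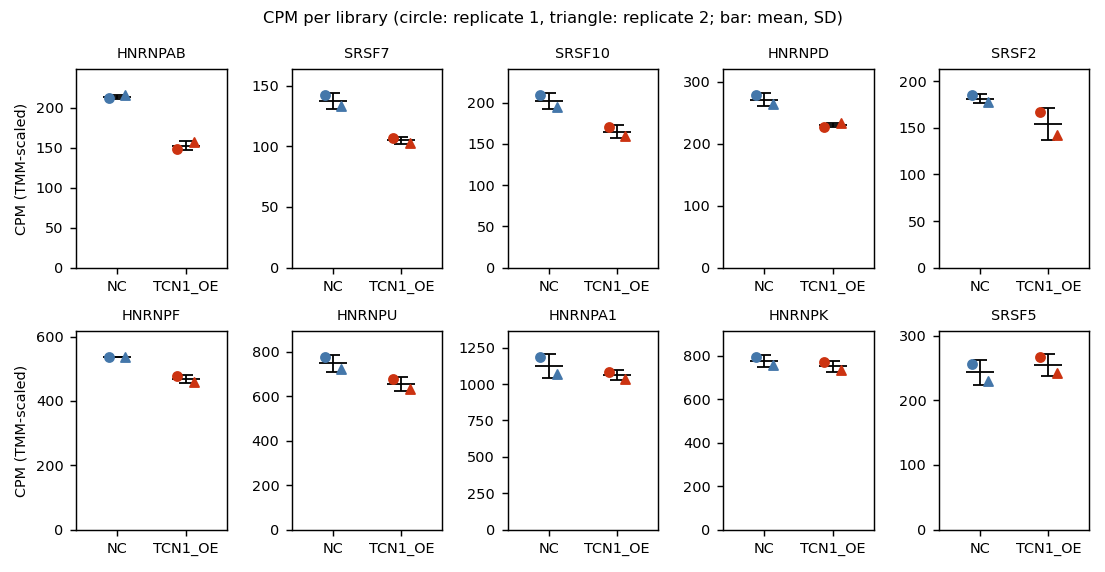
CPM after TMM scaling (y axis, from 0) in each NC and TCN1_OE library for the 7 protein-coding members with an unadjusted p under 0.05, followed by HNRNPA1, HNRNPK and SRSF5; circles are replicate 1, triangles replicate 2, and bars the mean and SD of 2 libraries. In the first 7 genes both TCN1_OE points lie below both NC points, and in the last 3 the groups overlap.

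All differences of the protein-coding members were small. The ratio of TCN1_OE to NC ran from 0.714 for HNRNPAB to 1.08 for SRSF8, so that 0 of 30 reached 1.5-fold in either direction. The standard errors lay between 0.08 and 0.13 on the log2 scale. On simulated counts for the same 15113 genes in 2 against 2 libraries, 36 of the 67 genes with a 1.5-fold change were recovered by edgeR. Those genes were drawn from all but the weakly expressed genes, with a spread set by abundance alone. That share is therefore not the members' own. Changes smaller than 1.5-fold were not simulated. An adjusted p above the threshold here, from 0.107 to 0.974 among the members, therefore does not show that the lines had the same level.

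Levels spanned a wide range (the plot of FPKM by library). HNRNPA1, HNRNPF, HNRNPK and HNRNPA2B1 led with means over the 4 libraries of 163.1, 153.2, 133.6 and 111.8 FPKM, and SRSF2, SRSF3 and SRSF5 were the highest SR genes at 56.3, 53.1 and 46.4 FPKM. HNRNPA1 lay above HNRNPF in 3 of the 4 libraries and below it in NC replicate 2, so the order of these neighbours is not resolved. HNRNPF, HNRNPK and HNRNPA2B1 kept their order within each of the 4 libraries, as did SRSF2, SRSF3 and SRSF5, although the ranges over all libraries overlap for HNRNPF and HNRNPK and for the neighbours among these SR genes. FPKM divides by the gene length the authors used, which was 22512 bp for HNRNPU and 12614 bp for HNRNPA2B1 but 2118 bp for HNRNPAB. Genes with long merged exons therefore rank lower by FPKM than by counts.

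**Figure D3:**
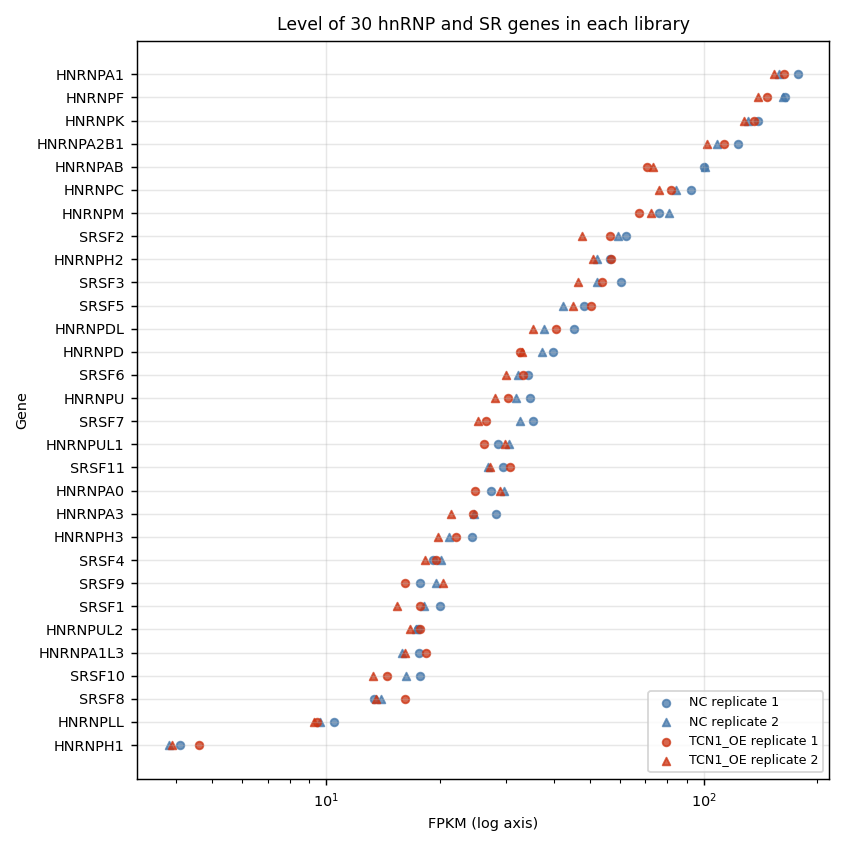
FPKM (x axis, log scale) of the 30 protein-coding members tested in each library, ordered by their mean; blue is NC, red is TCN1_OE, circles are replicate 1 and triangles replicate 2. Listed mean levels run from 4.11 FPKM for HNRNPH1 to 163.1 FPKM for HNRNPA1, and the red points of HNRNPAB stand clearly left of its blue points.

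HNRNPL and HNRNPR, hnRNP genes that are widely expressed in human cells, were listed at next to nothing. HNRNPL, which binds CA repeats, had 0 and 0 counts in NC and 1 and 1 in TCN1_OE, while its 2 pseudogene rows held 20 to 45 counts per library. HNRNPR, a relative of SYNCRIP, had 0 and 0 counts in NC and 1 and 0 in TCN1_OE. The core spliceosome gene PRPF8, with 1 to 3 counts per library, and TAF15, with 2 or 3, were in the same position. PRPF8 is needed by every splicing cell, so such rows are not read as levels of expression, and the cause was not tested. Very low rows also occur among the tested genes of the partner lists below. Examples are MATR3 at 0.200 to 0.332 FPKM and PRPF31 at 0.161 to 0.431 FPKM, both named outside the rule and included in the counts of their lists. In GENCODE release 29, 8.22% of the exonic bases of HNRNPL and 0% of those of HNRNPR lie under another gene.

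The members share annotated unproductive transcripts. In GENCODE release 29 all 12 SR genes and 13 of the 21 protein-coding hnRNP genes (61.9%) have at least 1 transcript marked as a target of nonsense-mediated decay, against 39.8% of the 15826 listed protein-coding genes found in that release. SRSF7 has 6 such transcripts of 12, and HNRNPU has 9 of 31. HNRNPAB has 0 of 8. The members also have many transcripts, with a median of 11 for hnRNP and 8.5 for SR genes against 7 for all, and whether this number accounts for the shares was not tested.

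Promoter windows of 250 bases were found in RefSeq for 32 of the 35 members, all but HNRNPA1, HNRNPA1L3 and SRSF2. The E-box CACGTG, a sequence that reads the same on both strands and is bound by MYC with MAX among other factors, occurred in 6 of 21 HNRNP windows and 0 of 11 SRSF windows, and in 6.49% of 27305 promoters. CCAAT, on either strand, occurred in 13 of 21 HNRNP and 2 of 11 SRSF windows, beside 33.0% of all promoters, and the GC box in 15 and 4, beside 42.3%. The ETS motif occurred in 3 HNRNP and 2 SRSF windows, beside 8.82%, the TATA box in 3 and 2, beside 11.1%, and the NRF1 motif in 0 and 1, beside 2.81%. The matches are descriptions of these letters and not of binding. The members' windows had a median G and C content of 65.8%, against 58% over all promoters, and its part in these shares was not tested. The E-boxes are shown in capitals within 30 bases on the strand of the gene, 1 for each of the 6 genes. HNRNPH2 has a further E-box, not shown, that begins 9 bases before the start.
HNRNPA3, chr2:177212711-177212740, plus strand: cggaaaacgcgtCACGTGacgactggcccc
HNRNPD, chr4:82374001-82374030, minus strand: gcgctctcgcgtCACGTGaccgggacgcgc
HNRNPDL, chr4:82430364-82430393, minus strand: agaggcccggggCACGTGcagaaaggagcc
HNRNPH2, chrX:101408168-101408197, plus strand: ccgagagttgctCACGTGaccgagatctca
HNRNPH3, chr10:68331631-68331660, plus strand: tgccggtcgaacCACGTGgggccctttccg
HNRNPM, chr19:8444921-8444950, plus strand: gttgcgtcgggtCACGTGggcgcgcaggcg
The 6 genes with an E-box ran from -0.24 for HNRNPD to -0.01 for HNRNPH2, with a median log2 fold change of -0.15, and the 11 tested protein-coding hnRNP genes whose window lacks one ran from -0.49 for HNRNPAB to 0.10 for HNRNPH1, with a median of -0.10. The range of the first group lies within that of the second, and the difference was not tested.

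Libraries with the same replicate number also resembled each other in these genes. In 6 members replicate 2 lay above replicate 1 in both lines, in 21 below in both, and in 4 the sign differed. No such count was made over all genes tested. Deviations of same-numbered libraries from their group means correlated at 0.60 over the 31 members and at 0.15 over all genes tested. Most genes tested were less abundant than the protein-coding members. No correlation was made over the 6025 genes of at least their lowest abundance, so the part of abundance in this gap was not tested. SRSF9 had the largest such difference among the protein-coding members, with replicate 2 higher by 0.16 on the log2 scale in NC and by 0.35 in TCN1_OE, and HNRNPA0 was higher by 0.13 and 0.24. HNRNPDL went the other way, at -0.25 and -0.18. In 19 of 31 members the larger replicate difference exceeded the difference between the lines; HNRNPAB, SRSF7, SRSF10 and HNRNPD were among the 12 in which it did not. The labels do not say what a replicate number stands for.

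**Figure D4:**
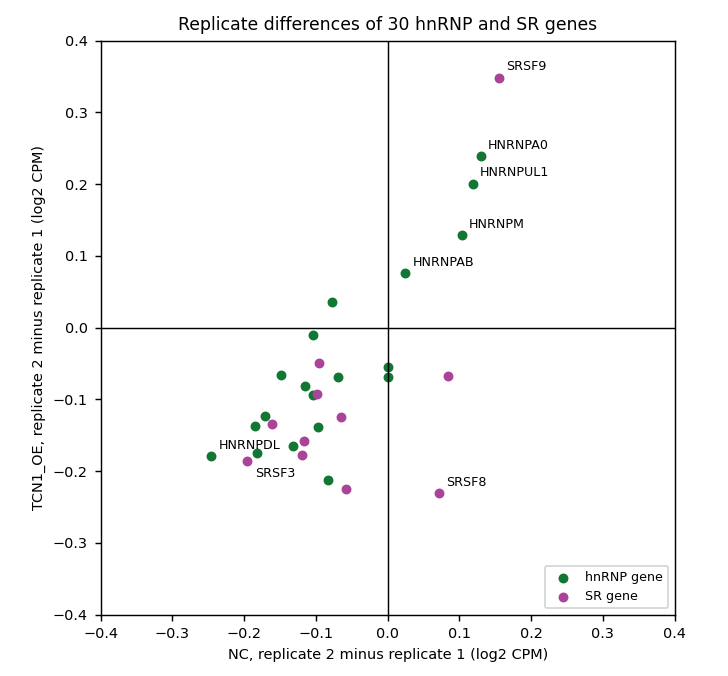
Log2 CPM of replicate 2 minus replicate 1 in NC (x axis) and in TCN1_OE (y axis) for the 30 protein-coding members tested, with hnRNP genes in green and SR genes in purple. SRSF9, HNRNPA0, HNRNPUL1 and HNRNPM sit at the upper right, higher in replicate 2 of both lines, while most other genes sit at the lower left.

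Factors that work with the members were taken from 8 lists of 127 genes, of which 120 could be tested. In edgeR, DESeq2 and limma 0 passed over all genes, and with edgeR 17 were lower and 0 higher at an unadjusted p under 0.05. Of the 120, 99 lay below 0, the median was -0.11, and in 46 both TCN1_OE libraries lay below both NC libraries. Over all genes tested, 6.81% were lower and 6.00% higher at an unadjusted p under 0.05, 49.7% lay below 0, and 21.8% had both TCN1_OE libraries below both NC libraries. Among the 6025 genes of at least the members' lowest abundance, 11.0% were lower at that p, 58.2% lay below 0 and 28.8% had groups separated in that way. The lists were chosen with earlier results of these data known.

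By median, the tri-snRNP and U2 snRNP lists lay lowest among the lists. All 19 tested genes of the U4/U6.U5 tri-snRNP and activation list were negative, with a median of -0.16. At an unadjusted p under 0.05 with edgeR, 6 were lower and 0 higher. The shares lower at that p were 6.81% of all genes tested and 11.0% of the 6025 genes of at least the members' lowest abundance. PRPF31, named outside the rule, is among the 19 at only 0.161 to 0.431 FPKM. It stood at -0.33 ± 0.59, with -0.59 at replicate 1 and 0.40 at replicate 2. PRPF4, a component of the U4/U6 particle, stood at 29.8 and 28.5 FPKM in NC and 24.4 and 24.0 FPKM in TCN1_OE, a log2 fold change of -0.27 ± 0.09. EFTUD2, the GTPase of the U5 particle, stood at -0.25 ± 0.09. In the list of U2 snRNP and 3′ splice site factors 16 of 17 were negative, with a median of -0.18. SF3B3, a subunit of the SF3b complex, stood at 36.7 and 37.9 FPKM in NC and 31.2 and 31.2 FPKM in TCN1_OE, at -0.26 ± 0.08. U2AF1, which reads the AG of the 3′ splice site, stood at -1.52 ± 0.44. Its level was only 0.329 and 0.894 FPKM in NC and 0.174 and 0.244 FPKM in TCN1_OE. NC replicate 2 lay above NC replicate 1 by 1.43 on the log2 scale, nearly the size of the fold change. The level of U2AF1 also lay far under that of its partner U2AF2, at 56.7 to 72.4 FPKM.

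Signs differed among regulators of the SR proteins. Of 12 tested genes in the list of kinases, import factors and other regulators, 8 were negative and 4 positive, with a median of -0.05. At an unadjusted p under 0.05 with edgeR, 4 were lower and 0 higher, beside 6.81% and 6.00% of all genes tested. Both TCN1_OE libraries lay below both NC libraries in 6 and above in 2, beside 21.8% and 21.2% of all genes tested. The arginine methyltransferases PRMT1 and PRMT5, which modify many RNA-binding proteins, stood at -0.32 ± 0.09 and -0.35 ± 0.12, with edgeR adjusted p of 0.187 and 0.250. In the list of SR-like and SR-related proteins 13 of 14 were negative, with a median of -0.07, and TRA2B and RNPS1 stood at -0.27 ± 0.10 and -0.18 ± 0.09. Among hnRNP proteins under other symbols 10 of 15 were negative, with a median of -0.07. PTBP1, which binds polypyrimidine tracts and is also known as hnRNP I, stood at -0.28 ± 0.10, and its groups did not overlap.

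The 3 remaining lists had medians from -0.09 to -0.06, with most genes of each negative. Over all genes tested 49.7% were negative, and 58.2% of the 6025 genes of at least the members' lowest abundance. Both TCN1_OE libraries lay below both NC libraries in 2 Sm and U1 genes and above in 1. Among the other regulators these counts were 4 and 5, and in the decay list 2 and 2. The shares over all genes tested were 21.8% and 21.2%. Of 13 Sm and U1 snRNP genes 11 were negative, with a median of -0.09, and SNRPA and SNRPC of the U1 particle stood at -0.26 ± 0.12 and -0.20 ± 0.10. Of 16 other splicing regulators 10 were negative, with a median of -0.07. ELAVL1, which stabilises AU-rich mRNAs, stood at -0.20 ± 0.09 and TIA1, which promotes the use of weak 5′ splice sites, at 0.20 ± 0.10. Of 14 genes of nonsense-mediated decay and the exon junction complex 12 were negative, with a median of -0.06, and MAGOH and CASC3 stood at -0.39 ± 0.12 and -0.14 ± 0.08. In EIF4A3, named outside the rule, NC replicate 2 stood at 6.09 FPKM and the other 3 libraries at 0.372 to 0.446 FPKM.

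**Figure D5:**
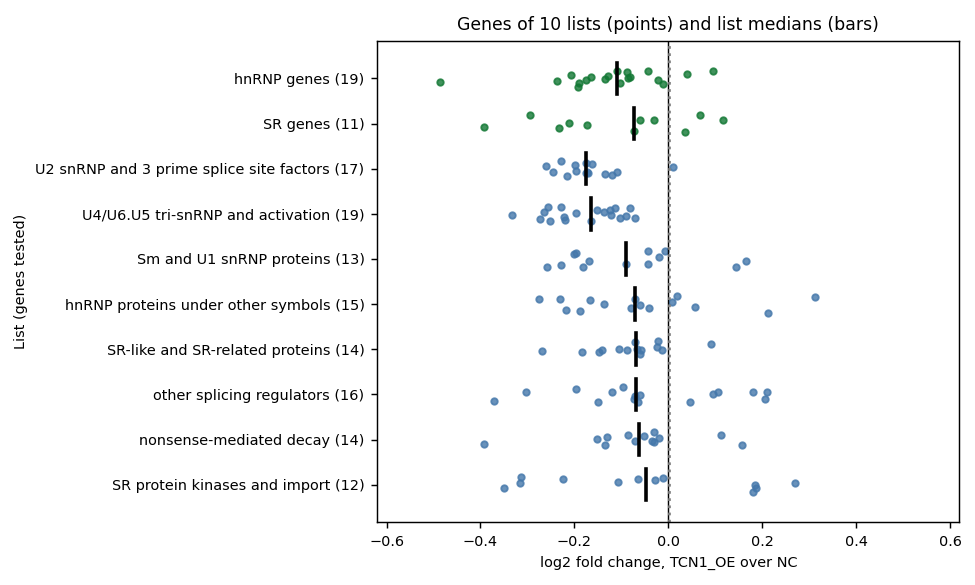
Log2 fold change of TCN1_OE over NC (x axis) of each tested gene (points) and the list median (black bars) for the protein-coding hnRNP and SR genes and 8 lists of related factors, with the number of genes tested in brackets; 3 genes beyond 0.6 in size (U2AF1, PUF60 and EIF4A3) are in the medians but not drawn. All 10 medians lie left of 0, and the U2 and tri-snRNP lists lie farthest left.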

How the data were processed

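Each deposited table gives a read count and the FPKM of every gene, per the file headers. Per the submitters' processing notes, HISAT2 and HTSeq 0.13.5 were used with GRCh38. The sources used here do not name the version of HISAT2, the gene annotation, or how strand and multiply mapped reads were handled. The authors' FPKM follows from their counts: 100% of values above 0 gave a whole gene length within 0.0001 bp. A floor of 3 counts is 0.100 to 0.173 FPKM at 1500 bp and covers counting error only.

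Counts were tested with edgeR 4.0.16 in R 4.3.3 (quasi-likelihood, TMM, robust, group only, filterByExpr with a minimum count of 10, Benjamini-Hochberg adjustment over all genes tested, threshold 0.05), after a test on simulated data. The NEBNext Ultra RNA kit named in the labels' protocols keeps no strand information. The SE is the size of the log2 fold change divided by the square root of F. Alternatives were other scalings and filters, DESeq2 1.42.0, limma 3.58.1 on log2(FPKM + 0.1, 0.5 or 1), each library left out, and a replicate term. An exact permutation test of 2 against 2 cannot go below 0.333. Exonic overlaps and transcript types come from GENCODE release 29. Members and lists were chosen with earlier results of these data known. All members could be named; from each list came the 2 genes with the smallest p, of which 1 is not reported here.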

Additional observations from a re-analysis of the deposited data

How the results depend on the processing

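Over the 14 alternatives, 18 of 20 HNRNP rows and 8 of 11 SRSF rows being negative moved little, to 16 to 19 and 8 to 10. Leaving out 1 library moved the HNRNP median between -0.16 (NC replicate 2) and -0.071 (NC replicate 1), and the SRSF median between -0.14 and -0.08. Over all alternatives the SRSF median came closest to 0 with upper quartile factors, at -0.052. In 11 members, all within 0.135 of 0 when it happened, the sign turned in at least 1 alternative. With upper quartile factors HNRNPH2 stood at 0.010 and HNRNPUL2 at 0.0010, and HNRNPH2 at 0.0014 in genes of at least 1 FPKM. With 1 library left out HNRNPA0 ran from -0.21 to 0.030, HNRNPA1L3 from -0.046 to 0.12, HNRNPDL from -0.25 to 0.0014, HNRNPH1 from -0.016 to 0.20, HNRNPH2 from -0.083 to 0.056, HNRNPUL1 from -0.19 to 0.015, HNRNPUL2 from -0.056 to 0.013, SRSF11 from -0.045 to 0.11, SRSF5 from -0.0084 to 0.16, SRSF8 from -0.0040 to 0.23 and SRSF9 from -0.21 to 0.13.

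Calls moved more. Members called lower numbered 1, against 0 in genes of at least 1 FPKM, 0 with limma at each pseudocount, 0 to 1 with a library left out and 2 (HNRNPAB and SRSF7) without a filter. Listed partner genes called lower numbered 0, against 1 without a filter and 0 to 3 with a library left out. Over all genes, 43 higher and 32 lower became 69 and 63 with library totals, 78 and 53 with upper quartile factors, 200 and 275 without a filter, 14 lower in genes of at least 1 FPKM, 110 and 113 with DESeq2, 1 and 0 with limma at each pseudocount, and 102 to 195 and 103 to 124 with a library left out. The cause was not tested. A fold change rests on 3 libraries there, and the lone library of a group is taken to vary like the others.

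The replicate numbers are not said to pair the libraries. The deviations of same-numbered libraries from their group means correlated at 0.15 over all genes tested and at 0.60 over the 31 members. These sets differ in abundance, and its part in the gap was not tested. With the replicate block edgeR called 1216 genes higher and 1655 lower (8.05% and 11.0% of those tested), among them 15 members lower and 0 higher, and 7 listed partner genes higher and 47 lower. Member fold changes were nearly the same in that fit, with 1 degree of freedom left for the spread.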

Other observations

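The rule set aside 53 pseudogene rows of the same families. Their summed count was 930 and 503 for the NC libraries, 667 and 640 for TCN1_OE, or 0.447% to 0.514% of the members' counts. HNRNPA1 gave 29 of these rows and 379 to 679 counts per library, and HNRNPA3 gave 8 rows and 24 to 58 counts. The noncoding row HNRNPD-DT, which shares 22.4% of its exonic bases with HNRNPD, had a count of 2 and 1 for NC, 3 and 2 for TCN1_OE.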
